A study of Mus musculus with 14 samples.

Results

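The enzymes of the 3 regulated steps of glycolysis exist in forms that hepatocytes use and in forms that other cells use, and 9 genes of these steps were followed in the livers of mice that had received a brown fat cell transplant or an empty scaffold. They were Hk1, Hk2, Hk3 and Gckr (glucose phosphorylation), Pfkl, Pfkfb1 and Pfkfb3 (phosphorylation of fructose 6-phosphate and its control) and Pklr and Pkm (the pyruvate kinase step). The 9 genes were selected on their summed estimated counts, compared between these groups, so that comparison is given for them as a description, without a test. All 9, of 24983 genes with a count, passed the filter on low counts, which kept 13131 genes. Recipients of both groups were fed a high-fat diet, and silk scaffolds were implanted in both. In the transplant group (6 libraries) the scaffold carried differentiated pre-adipocytes, isolated from the stromal fraction of brown fat; in the empty scaffold group (8 libraries), titled Sham-WT, it carried no cells. The sources used here do not give strain, age, sex, site of the implant, time after surgery or what "2x" in the transplant titles stands for. The question of the series is what these cells do to glucose metabolism of the whole body, with the liver transcriptome as one readout.

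Glycolysis turns glucose into pyruvate, and cells control it mainly where a hexokinase traps glucose as glucose 6-phosphate, where phosphofructokinase commits the sugar to breakdown and where pyruvate kinase makes pyruvate. Hepatocytes restrain glucose phosphorylation through the regulatory protein Gckr when glucose is scarce, and they rely on the liver phosphofructokinase Pfkl, on the bifunctional enzyme Pfkfb1 and on the L-type pyruvate kinase made from Pklr. The high-affinity hexokinases Hk1, Hk2 and Hk3, Pfkfb3 and Pkm are the forms of most other cells, leukocytes, fibroblasts and proliferating cells among them.

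Transplant libraries held 22898793 to 28910968 estimated counts in total, and empty scaffold libraries 19482580 to 28723928. No 2 libraries held identical values. Library titles carry numbers in 2 ranges whose meaning the labels do not give, 3 transplant and 4 empty scaffold libraries below 100 and the same numbers of libraries at 100 or above, and within a range the groups' numbers do not interleave. Since the labels leave unsaid whether each library is a separate animal, p-values cover only the spread between libraries, which may be technical. Hepatocyte markers dominated every library, with a summed level of 82059 to 152172 CPM (counts relative to the TMM-scaled library total). Of the markers of other cells, 7 of 14 Kupffer cell and macrophage genes, 4 of 10 leukocyte and neutrophil genes, 3 of 10 stellate cell and fibroblast genes and 2 of 10 sinusoidal endothelial genes were called lower in the transplant group (edgeR's quasi-likelihood test with a threshold of 0.05 on adjusted p, by which 4.23% of all genes were lower), and none of these was called higher. Not all lists of other cells were lower. Of 5 tested cholangiocyte genes and 5 tested erythroid genes, 0 were called in either direction. Their median log2 fold changes were -0.118 and 0.313. Muscle and fat cell markers are given further below. In bulk tissue, fewer cells of a type and less RNA per cell cannot be told apart.

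Isoforms of the pyruvate kinase genes differ by their start (Pklr) or by an exon (Pkm). The sequences at these places are shown here because the transcript results below refer to them. Pklr has an upstream start, known to serve the R-type enzyme of erythroid cells, and a downstream start, known to serve the L-type enzyme of liver. The windows before these starts (RefSeq, GRCm38.p6, plus strand, chr3:89135892-89136141 and chr3:89136373-89136571) read as follows, the latter ending before the first base annotated as transcribed, with capitals marking a pair of E-box-like sites and the 5 bases between them.
Pklr upstream start: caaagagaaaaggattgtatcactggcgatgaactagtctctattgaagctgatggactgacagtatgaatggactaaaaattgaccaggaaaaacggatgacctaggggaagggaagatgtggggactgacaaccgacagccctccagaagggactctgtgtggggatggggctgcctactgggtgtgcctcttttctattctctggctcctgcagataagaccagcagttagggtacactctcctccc
Pklr downstream start: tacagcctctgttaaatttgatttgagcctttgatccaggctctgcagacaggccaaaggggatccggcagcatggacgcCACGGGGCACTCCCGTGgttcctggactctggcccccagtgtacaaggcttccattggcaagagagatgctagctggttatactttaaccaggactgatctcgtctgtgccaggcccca
The capitals lie 170 to 154 bases before the downstream start. The pair was searched as 2 copies of the E-box CACGTG, which reads the same on both strands, with at most 1 mismatch each and 5 bases apart. It was in 136 of 32851 RefSeq windows of 300 bases (0.414%) and, among the 16 windows of the 9 genes, in that of Pklr alone. The same pair without a mismatch was in 0 windows, the single E-box CACGTG was in 7.15% of all windows and in 1 of the 16 (Pfkfb3), and its core ACGTG, which the E-box contains, was in 19.6% of all windows and in 6 of the 16. A match is only a description of these letters.

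Pkm makes the M1 and M2 forms by including 1 of 2 neighbouring exons. They lie at chr9:59675029-59675195 (M1) and chr9:59675568-59675734 (M2) on the plus strand of GRCm38, are 167 bases long each, and are exon 9 of 11 in their transcripts in GENCODE M21. Capitals mark the 64 positions at which the exons differ, the other 103 (61.7%) being identical.
Pkm M1 exon: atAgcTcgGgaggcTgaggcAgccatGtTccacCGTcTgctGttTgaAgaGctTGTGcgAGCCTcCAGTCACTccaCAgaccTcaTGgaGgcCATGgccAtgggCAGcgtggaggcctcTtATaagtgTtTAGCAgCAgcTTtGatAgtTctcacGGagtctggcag
Pkm M2 exon: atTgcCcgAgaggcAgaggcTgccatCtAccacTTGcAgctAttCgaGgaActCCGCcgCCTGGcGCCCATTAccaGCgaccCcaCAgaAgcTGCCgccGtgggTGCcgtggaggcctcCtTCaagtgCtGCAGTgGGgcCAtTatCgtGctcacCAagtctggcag

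The hexokinases of other cells were low in these livers, and all 3 were lower in the transplant group. Hk1 (ENSMUSG00000037012), the widely expressed housekeeping hexokinase, ranged from 1.22 to 2.62 CPM in transplant libraries (median 1.39) and from 1.82 to 3.66 CPM in empty scaffold libraries (median 3.13). In 5 of 6 transplant libraries it was below every empty scaffold library, and the exception was transplant replicate 6. The mean was 1.59 ± 0.526 against 2.84 ± 0.686 CPM (SD, n = 6 and 8), a log2 fold change of counts of -0.84 ± 0.21 (SE).

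Hk2 (ENSMUSG00000000628), the insulin-responsive hexokinase of muscle and fat that is also induced in proliferating cells, ranged from 0.572 to 2.13 CPM in transplant libraries (median 0.850) and from 1.44 to 4.16 CPM in empty scaffold libraries (median 2.78). The groups overlapped, since transplant replicates 4 and 6 lay above the lowest empty scaffold library. The mean was 1.10 ± 0.631 against 2.68 ± 1.09 CPM, a log2 fold change of -1.30 ± 0.34. Hk3 (ENSMUSG00000025877), a hexokinase of myeloid cells, ranged from 0.646 to 1.79 CPM (median 1.10) against 1.24 to 3.76 CPM (median 2.62). Here 6 of 8 empty scaffold libraries lay above every transplant library. The mean of Hk3 was 1.10 ± 0.408 against 2.53 ± 0.902 CPM, a log2 fold change of -1.20 ± 0.28.

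These levels rest on few reads. Hk1 had 30 to 60 counts in transplant libraries and 41 to 118 in empty scaffold libraries, Hk2 had 14 to 43 and 35 to 118, and Hk3 had 15 to 36 and 31 to 111. The hexokinase-like gene Hkdc1 reached at most 0.317 CPM and was not tested.

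Gckr (ENSMUSG00000059434), the regulatory protein of glucose phosphorylation in hepatocytes, had the narrowest spread of the 9 relative to its mean. It ranged from 130.4 to 155 CPM in transplant libraries (median 146) and from 123 to 151 CPM in empty scaffold libraries (median 144). Only the highest transplant library and the lowest empty scaffold library lay outside the range of the other group. The mean was 144 ± 9.36 against 141 ± 10.2 CPM, a log2 fold change of 0.03 ± 0.08.

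**Figure D1:**
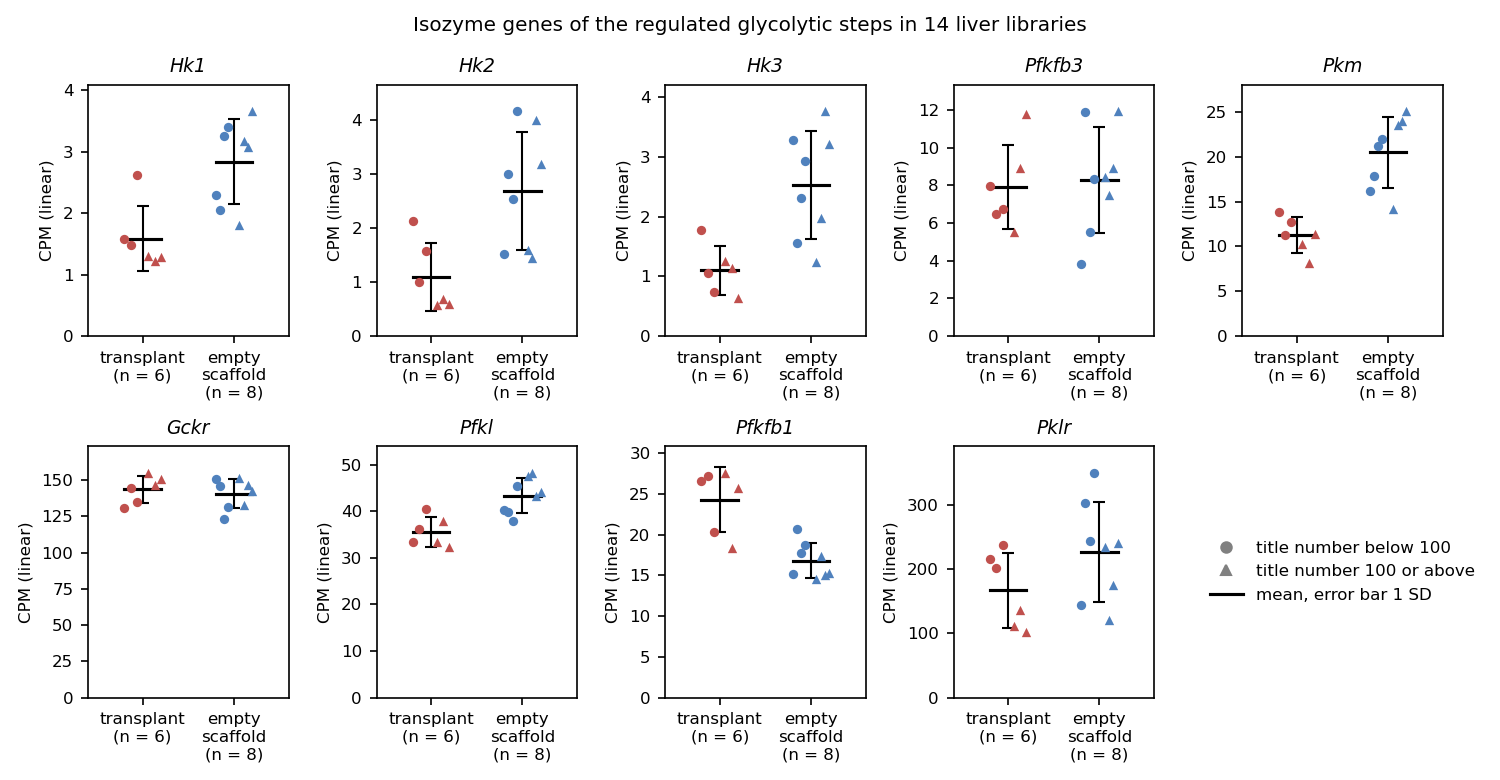
Level of each of the 9 genes in every library, in CPM on linear axes that start at 0, with the mean and 1 SD per group in black and the range of the title number as marker shape. Pkm is the gene without overlap, with transplant libraries at 8.12 to 13.8 CPM and empty scaffold libraries at 14.2 to 25.1 CPM; Gckr and Pfkfb3 overlap almost entirely.

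At the phosphofructokinase step the liver subunit was slightly lower in the transplant group. Pfkl (ENSMUSG00000020277) ranged from 32.3 to 40.5 CPM in transplant libraries (median 34.8) and from 38.0 to 48.2 CPM in empty scaffold libraries (median 43.8). Of the transplant libraries 5 of 6 lay below every empty scaffold library. The mean was 35.6 ± 3.18 against 43.4 ± 3.71 CPM, a log2 fold change of -0.29 ± 0.08. The muscle subunit Pfkm stood at 14.5 ± 1.94 against 17.0 ± 2.57 CPM and did not pass edgeR's test (log2 fold change -0.23 ± 0.11, adjusted p = 0.170). The platelet subunit Pfkp, expressed in many cells outside the liver parenchyma, fell by 0.74 ± 0.20 on the log2 scale (1.22 ± 0.167 against 2.03 ± 0.608 CPM, edgeR adjusted p = 0.0400), lower in 4 of 6 transplant libraries than in every empty scaffold library. That call was lost in 10 of 14 fits with 1 library left out (adjusted p from 0.0223 to 0.0981 over the 14), with no filter on low counts (0.0530), with length and GC trends removed (0.0530), with an effective length offset (0.242) and with title numbers below 100 (0.722).

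The bifunctional enzymes make and break fructose 2,6-bisphosphate, the activator of phosphofructokinase, and of the 9 genes the liver form had the highest log2 fold change. Pfkfb1 (ENSMUSG00000025271) ranged from 18.3 to 27.6 CPM in transplant libraries (median 26.2) and from 14.6 to 20.7 CPM in empty scaffold libraries (median 16.3). In 4 of 6 transplant libraries it exceeded every empty scaffold library, while transplant replicates 2 and 6 lay within the other group's range. The mean was 24.3 ± 3.96 against 16.8 ± 2.16 CPM, 1.44-fold higher, with a log2 fold change of 0.53 ± 0.11.

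Pfkfb3 (ENSMUSG00000026773), the inducible form with a high ratio of kinase to phosphatase activity, ranged from 5.53 to 11.8 CPM (median 7.36) against 3.84 to 11.9 CPM (median 8.37). All transplant libraries lay within the range of the empty scaffold libraries. The mean was 7.90 ± 2.24 against 8.28 ± 2.80 CPM, a log2 fold change of -0.07 ± 0.22. Its sign turned with length and GC trends removed (0.15 ± 0.20) and on the TPM scale centred on the median gene (0.02).

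At the pyruvate kinase step both genes had lower means in the transplant group, with overlap for the liver gene and none for the other. Pkm (ENSMUSG00000032294), the gene of the M1 and M2 forms, ranged from 8.12 to 13.8 CPM in transplant libraries (median 11.4) and from 14.2 to 25.1 CPM in empty scaffold libraries (median 21.6). All 6 transplant libraries lay below all 8 empty scaffold libraries, which 0.701% of all tested genes shared (0.571% had all transplant libraries above). The mean was 11.3 ± 1.97 against 20.5 ± 3.96 CPM, 1.82-fold lower, with a log2 fold change of -0.86 ± 0.14.

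Pklr (ENSMUSG00000041237), the gene of the L-type liver enzyme, ranged from 102 to 238 CPM in transplant libraries (median 169) and from 121 to 349.6 CPM in empty scaffold libraries (median 238). Transplant replicates 1 and 3 were the libraries below every empty scaffold library, and 4 empty scaffold libraries exceeded every transplant library. The mean was 167 ± 58.4 against 227 ± 77.6 CPM, a log2 fold change of -0.44 ± 0.24, and the SD was about as wide relative to the mean in both groups.

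Over the 9 genes the log2 fold change ran from -1.30 (Hk2) to 0.53 (Pfkfb1), below 0 for 7 and above 0 for 2. Its median was -0.44, against -0.02 over all 13131 tested genes. As the list was made from this contrast, neither the signs nor the median are evidence about it. Over all genes the test called 7.54%, made up of 3.31% higher and 4.23% lower. Of those called, 43.9% were higher; on log2 TPM, where the median gene stood at -0.43, 1.21% were, and on log2 TPM centred on that median 54.8% were. Pfkfb1 stood at 0.02 before and 0.44 after centring. Gckr stood at -0.40 before and 0.03 after it, so its sign on the count scale holds only relative to that shift.

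The contrast was also fitted within each range of title numbers. With numbers of 100 or above, the log2 fold change was -1.22 ± 0.27 for Hk1, -2.05 ± 0.42 for Hk2, -1.14 ± 0.21 for Pkm and -0.75 ± 0.22 for Pklr. With numbers below 100 the same genes stood at -0.52 ± 0.28, -0.84 ± 0.36, -0.61 ± 0.14 and -0.25 ± 0.26. Hk3 (-1.34 ± 0.41 and -1.09 ± 0.34) and Pfkfb1 (0.60 ± 0.15 and 0.45 ± 0.14) were closer between the ranges.

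Libraries also differed in how gene level ran with transcript length, and the range of 100 or above held the extremes. The slope of level on log2 length in that range was -0.288, 0.038 and -0.001 in transplant replicates 1, 2 and 3. It was 0.207 to 0.259 in the 4 empty scaffold libraries of that range, so the groups did not overlap there. Below 100 they overlapped, at -0.176 to -0.102 in transplant and -0.135 to -0.004 in empty scaffold libraries. With length and GC trends removed, Pfkl went from -0.29 ± 0.08 to -0.05 ± 0.06. The other values were -0.77 ± 0.13 for Pkm, -1.07 ± 0.28 for Hk3, -0.62 ± 0.20 for Hk1, -1.17 ± 0.35 for Hk2 and 0.40 ± 0.09 for Pfkfb1. Leaving out 1 library at a time moved Hk2 between -1.60 and -1.17, Hk1 between -1.05 and -0.78, and Pkm between -0.94 and -0.78.

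**Figure D2:**
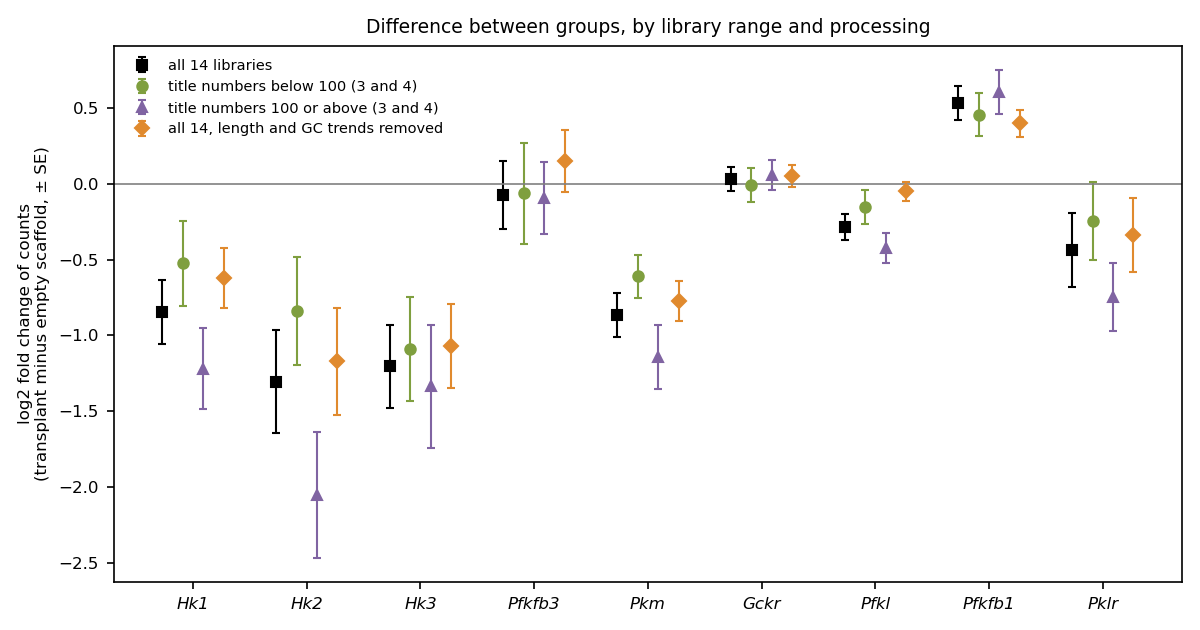
Log2 fold change of counts, transplant minus empty scaffold, with its SE (vertical axis) for each of the 9 genes, from all 14 libraries, from each range of title numbers and with length and GC trends removed. Hk1, Hk2 and Pkm lie further from 0 in the range of 100 or above, Pfkl moves to -0.05 with the trends removed, and Pfkfb1 is above 0 in all 4 fits.

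Whether the group difference was unequal in the ranges was tested with an interaction term, which the choice of genes had not used. None of the 9 genes passed edgeR's test (0 at an unadjusted p under 0.05) or that of DESeq2, and by edgeR 0.0% of all genes did (0 of 13131, with 2275 at an unadjusted p under 0.05 and 183 called by DESeq2). The widest differences between the ranges were those of Hk2 at -1.18 ± 0.58 (adjusted p = 0.301), Hk1 at -0.67 ± 0.39 (0.379) and Pkm at -0.51 ± 0.25 (0.311).

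The ranges themselves differed in 23.4% of all genes (12.5% higher and 10.9% lower at 100 or above, with the group as a term), and among the 9 genes only Pklr passed this test. Pklr fell by 0.64 ± 0.19 on the log2 scale at 100 or above (edgeR adjusted p = 0.0235). It ranged from 144 to 349.6 CPM (median 238) in the 7 libraries below 100 and from 102 to 241 CPM (median 136) in the 7 libraries at 100 or above. In the transplant group, with 3 libraries in each range, the ranges did not overlap, at 201 to 238 against 102 to 136 CPM. The share of all genes without such overlap was not counted. The difference was -0.93 ± 0.15 (edgeR adjusted p = 0.0407). In the empty scaffold group the ranges overlapped, at 144 to 349.6 against 121 to 241 CPM, and the difference was -0.43 ± 0.29 (edgeR adjusted p = 0.308). Over all genes the fit within transplant libraries, added after seeing the data, called 41, and that within empty scaffold libraries called 3242. The difference between the groups in this respect did not pass edgeR's interaction test for Pklr (-0.48 ± 0.37, adjusted p = 0.530). The Pklr call between the ranges over all libraries was lost without transplant replicate 3 or empty scaffold replicate 8 (adjusted p up to 0.0564). It was also lost with no filter on low counts (adjusted p = 0.0735). Of the other 8 genes the widest were Hk2 at -0.55 ± 0.30 (adjusted p = 0.193) and Pfkfb3 at 0.31 ± 0.21 (adjusted p = 0.299). Hk2 passed with an effective length offset (-1.19 ± 0.33, adjusted p = 0.0156).

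Levels of different genes can be compared only per length, in TPM, which divides counts by an effective transcript length. In the empty scaffold group the mean was 93.7 ± 31.1 TPM for Pklr, 73.6 ± 19.4 for Gckr, 14.4 ± 2.54 for Pfkfb1, 12.3 ± 3.71 for Pfkl, 9.96 ± 3.76 for Pkm and 2.09 ± 0.940 for Pfkfb3. Hk3, Hk2 and Hk1 followed at 1.0 ± 0.581, 0.890 ± 0.498 and 0.828 ± 0.357 TPM. Pklr and Gckr had overlapping SDs, as did Pfkfb1 with Pfkl, Pfkl with Pkm, Pfkfb3 with Hk3, and the 3 hexokinases with each other.

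In the transplant group Gckr (55.0 ± 12.3 TPM) and Pklr (49.2 ± 11.6 TPM) led and did not differ beyond their spread, each being the higher one in 3 of 6 libraries. Pfkfb1 at 14.6 ± 2.83, Pfkl at 7.09 ± 1.82, Pkm at 3.82 ± 0.664 and Pfkfb3 at 1.54 ± 0.805 TPM stood apart from their neighbours, and in every transplant library the order of these 4 was the same. Hk1, Hk3 and Hk2 were last, at 0.362 ± 0.0994, 0.279 ± 0.105 and 0.246 ± 0.127 TPM. Their SDs overlapped.

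Within 3 families, liver forms held most of the TPM in both groups. Of the TPM of Pklr and Pkm, Pklr held 88.8% to 94.2% and 82.4% to 93.6% (means 92.5% ± 2.15 and 89.9% ± 3.82). Pfkfb1 held 82.3% ± 6.31 and 74.5% ± 8.03 of the 4 Pfkfb genes, and Pfkl 61.1% ± 1.80 and 61.9% ± 2.70 of the 3 phosphofructokinase subunits. All 3 shares overlapped between the groups. Counts per library were 2359 to 8832 for Pklr, 199 to 809 for Pkm, 643 to 1496 for Pfkl and 300 to 723 for Pfkfb1. Pfkp had 21 to 102 and Pfkfb4 as few as 7, so the smallest forms rest on few reads. The shares are a description of the contrast from which the genes were listed.

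The forms made from single genes were then examined. The lead transcript of a gene was compared where every library had at least 20 estimated counts and a second transcript held at least 10% on average, which left 3 genes. The lead transcript Pfkfb1-202 held 73.2% ± 10.2 of Pfkfb1 TPM in the transplant group and 72.2% ± 9.49 in the empty scaffold group. For Hk1-201 the shares were 32.1% ± 29.9 and 37.8% ± 32.9, and for Pfkfb3-214 they were 28.8% ± 9.87 and 37.7% ± 21.9. None of the 3 passed a two-sided exact permutation test over 3003 regroupings (p = 0.805, 0.736 and 0.378, each 0.805 after adjustment over the 3). Between single libraries the share of Hk1-201 ran from 0.0% to 87.8%, so at 30 to 118 counts per gene kallisto's split among Hk1 transcripts is not resolved.

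Pklr came almost wholly from the liver start whose window is printed above. Transcripts of the downstream start held at least 98.7% of Pklr TPM in the empty scaffold libraries. In the transplant group they held 99.4% or more in 4 libraries, and the upstream start held 15.0% in transplant replicate 1 and 16.9% in transplant replicate 6. The upstream start was at 0 in 1 transplant library and 5 empty scaffold libraries. Erythroid markers summed to 1213 CPM (1212.5) in transplant replicate 1 and 922 CPM in replicate 6, within the 464 to 2043 CPM of the transplant group, and were highest in replicate 3, where the upstream start was at 0; their part in the share was not tested. This comparison was chosen after its values were seen.

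Pkm was mainly the M2 form in every library. The M2 transcript held 83.3% to 98.5% of the TPM of the M1 and M2 transcripts together, with a mean of 92.1% ± 3.64 over 14 libraries. The M1 transcript, the form of muscle and brain, held 7.38% ± 3.24 in the transplant group and 8.34% ± 4.08 in the empty scaffold group, with overlap. By range it held 1.46% to 8.77% (mean 5.68% ± 2.43) in libraries below 100 and 6.22% to 16.7% (mean 10.2% ± 3.30) at 100 or above. This too was chosen after its values were seen and has no test.

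**Figure D3:**
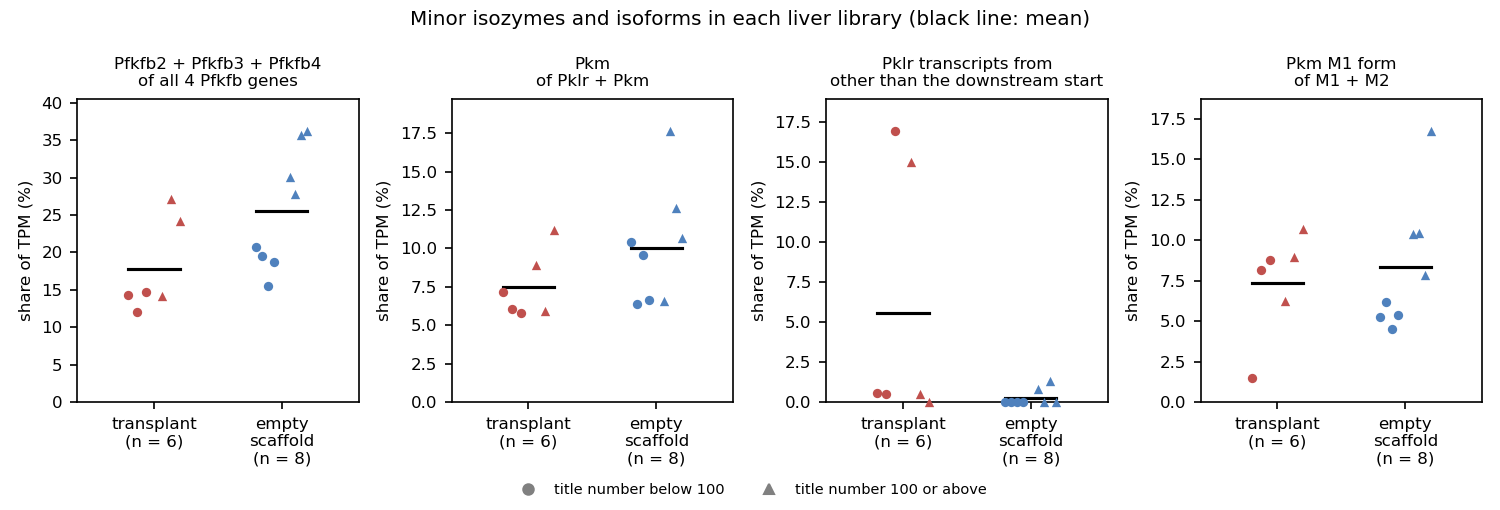
Share of TPM (%, linear axes from 0, each panel to its own top) held by the minor form in each library, with the mean per group as a black line: Pfkfb genes other than Pfkfb1, Pkm among the pyruvate kinase genes, Pklr transcripts from the upstream start, and the M1 form of Pkm. Transplant replicates 1 and 6 stand apart for the Pklr upstream start, at 15.0% and 16.9%, and the M1 share reaches 16.7% in 1 empty scaffold library of the range of 100 or above.

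Of 32 other genes of glycolysis and glucose uptake, 24 were tested between the groups. Of these edgeR called 1 lower (Pfkp) and 0 higher (0 higher at an unadjusted p under 0.05, also with DESeq2), where 7.54% of all genes were called. Their median log2 fold change was -0.02, against -0.02 over all genes. Slc2a2, the hepatic glucose transporter, stood at -0.17 ± 0.12 (edgeR adjusted p = 0.348). Of 13 regulators of glycolytic genes 0 passed edgeR's test (2 at an unadjusted p under 0.05, and 0 by DESeq2), again beside 7.54% of all genes, among them Mlxipl, the carbohydrate response factor ChREBP, at -0.15 ± 0.18 (adjusted p = 0.610). The 13 also include Ptbp1, Hnrnpa1, Hnrnpa2b1 and Srsf3, known for their part in the choice between the Pkm exons.

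Between the ranges of title numbers, 9 of the 24 tested pathway genes passed edgeR's test, 2 higher and 7 lower at 100 or above, where 23.4% of all genes passed. Pfkfb2, a bifunctional enzyme of heart and other tissues, rose by 1.16 ± 0.18 (edgeR adjusted p = 0.00296). It ran from 1.70 to 5.44 CPM below 100. At 100 or above it ran from 5.49 to 7.88 CPM in transplant and from 6.43 to 8.86 CPM in empty scaffold libraries. Tpi1, the triose phosphate isomerase, rose by 0.91 ± 0.15, while Gapdh fell by 0.79 ± 0.13, Gpi1 by 0.69 ± 0.13, the enolase Eno1 by 0.51 ± 0.13 and the aldolase Aldoa by 0.41 ± 0.09. Among the regulators, 4 of 13 were higher and 0 lower. They were Mlxip (0.61 ± 0.15), its relative Mlxipl (0.51 ± 0.13), the hypoxia factor Hif1a (0.36 ± 0.10) and Hnrnpa1 (0.19 ± 0.07). Pklr, which ChREBP is known to activate, was lower in the same range in which Mlxipl was higher. These are mRNA levels only, and a link between these genes was not tested.

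Within groups and ranges, the hexokinases followed markers of other cells to unequal extents. The measure was Pearson's r over 14 libraries between log2 CPM values from which the mean of each group within each range had been subtracted; these libraries share the scaling and the length trends, and the values are descriptions without a p. Hk3 ran with the mean of the leukocyte and neutrophil markers (r = 0.79) and of the Kupffer cell and macrophage markers (0.72), and of the 3 genes most like it among 10981 with at least 1 CPM, 2 were Aif1, a macrophage actin-binding protein (0.93), and Pycard, an inflammasome adaptor (0.91). Hk2 ran with the stellate cell and fibroblast markers (0.88) and against the hepatocyte markers (-0.73), and was most like Apoa4 (0.96), Haus8 (0.96) and the collagen gene Col3a1 (0.94), which is one of those markers. Hk1 was closest to Dbf4, Ehbp1l1 and Ddr1 (0.88 each) and had r of 0.53 with the stellate list and 0.25 with both immune lists.

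Summed levels of the same marker lists overlapped between the groups but reached higher values with the empty scaffold. Summed leukocyte and neutrophil markers ran from 15.6 to 33.5 CPM in transplant and 26.3 to 64.9 CPM in empty scaffold libraries, and Kupffer cell and macrophage markers from 242 to 341 and from 285 to 706 CPM. Stellate cell and fibroblast markers ran from 132 to 258 and from 166 to 374 CPM. The part of these cells in the lower Hk1, Hk2, Hk3 and Pkm was not tested. Muscle and fat cells also use Hk2. Skeletal muscle markers summed to 0.689 to 1.30 CPM in transplant and 0.255 to 0.828 CPM in empty scaffold libraries. The 1 tested gene of the 7, the myosin light chain Mylpf, was itself low, at 0.1695 to 0.843 CPM over all libraries. It rose by 1.21 on the log2 scale in the transplant group (edgeR adjusted p = 0.0164). Adipocyte markers summed to a median of 28.4 and at most 99.1 CPM in transplant libraries, and to a median of 52.8 and at most 134.8 CPM in empty scaffold libraries. Nearly all of it came from Cidec (9.88 to 119 CPM over all libraries) and Fabp4 (4.73 to 16.1 CPM), the 2 tested genes of the list, neither of which passed edgeR's test (adjusted p = 0.461 and 0.419). The defining adipocyte marker Adipoq reached at most 0.158 CPM. The part of these cells in the Hk2 level was not tested either.

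The pyruvate kinase genes had different partners. Pkm was most like Wipf1 (0.89), Anxa1 (0.87) and Serpina3g (0.86), with r of 0.63 for the stellate list and 0.58 for the leukocyte list. Pklr was most like Rgs16, a regulator of G protein signalling (0.94), Lrrc28 (0.93) and Mast3 (0.90). Its r with the marker lists of other cells had both signs. Pklr ran against the Kupffer list (-0.57) and the leukocyte list (-0.52), but with the sinusoidal endothelial list (0.62) and the stellate list (0.53). With the hepatocyte list r was -0.36. Between the pyruvate kinases r was -0.04.

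Of the remaining genes, Pfkl was most like Plcb3 (0.95), Fggy (0.89) and Cnot9 (0.84), Pfkfb1 like Ap3s1 (0.93), Slc17a9 (0.91) and Fli1 (0.90), Pfkfb3 like C1qtnf1 (0.93), Ctse (0.89) and Ier5l (0.88), and Gckr like Zmym5 (0.91), Rpgr (0.91) and Matr3 (0.91). With the Kupffer, leukocyte, sinusoidal endothelial, stellate and hepatocyte lists, in this order, r was -0.54, -0.37, 0.41, 0.38 and -0.4 for Pfkfb3. For Pfkfb1 it was -0.1, 0.32, 0.52, 0.08 and -0.13. For Pfkl it was -0.28, -0.53, -0.21, -0.25 and -0.05, and for Gckr -0.05, 0.0, -0.19, -0.46 and -0.19. Among the 9 genes themselves the closest pairs were Hk1 with Pkm (0.74), Pfkfb3 with Pklr (0.64) and Hk2 with Pklr (0.62). Gckr ran against Hk1 (-0.61) and Pkm (-0.56).

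**Figure D4:**
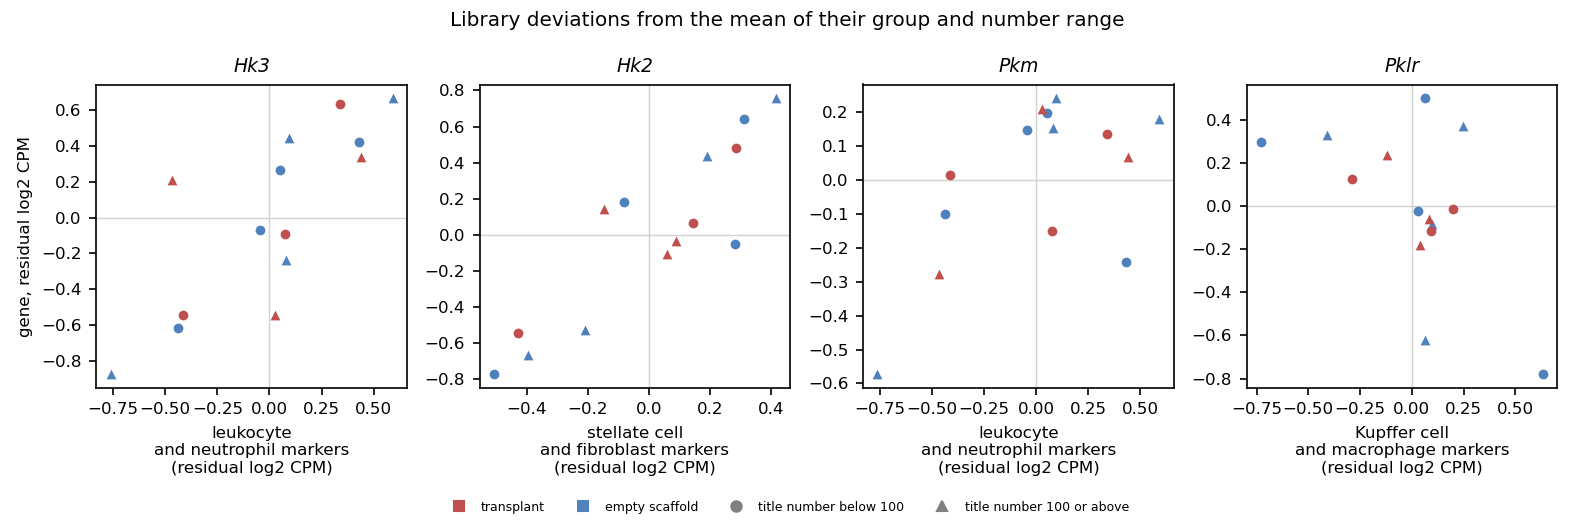
Deviation of Hk3, Hk2, Pkm and Pklr in each library (vertical axis, log2 CPM) against the mean deviation of a marker list (horizontal axis, log2 CPM), both from the mean of the library's group within its range of title numbers. Hk3 and Hk2 rise with the leukocyte and stellate lists (r = 0.79 and 0.88), Pkm with the leukocyte list to a lesser extent (r = 0.58), and Pklr falls with the Kupffer list (r = -0.57).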

How the data were processed

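RNA was sequenced from 14 liver samples. Per the labels' protocols, total RNA was turned into stranded mRNA libraries. The submitters' processing notes name fastp 0.20, kallisto 0.46.1, DESeq2 1.38 and GRCm39, with no role; the sources used here give neither strand setting nor annotation. The authors deposited, per the file headers, an estimated count, a TPM, a length and an effective length per transcript. The deposited estimated counts are not normalized. The deposited TPM values sum to one total in every library. In 29710 transcripts of the first library the effective length, by which TPM divides, exceeded the length.

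Identifiers were matched to GENCODE M21 (GRCm38), for names, exons and GC content: 120661 of 128803 transcripts (93.7%), with 99.4% to 99.5% of counts. Counts were summed per gene, rounded, filtered (filterByExpr, 13131 genes), TMM-scaled and fitted with edgeR 4.0.16 (quasi-likelihood, robust, two-sided; R 4.3.3), adjusted by Benjamini-Hochberg over all genes and called under 0.05. Fits were of the group, of the title number range with the group as a term, and of their interaction. CPM, log2 fold changes and SE come from these fits, and correlations from log2 CPM with a prior count of 2. In simulated data for the group comparison (13131 genes) 86% of 100 genes changed by a log2 of 1 were recovered, and 2.67% of calls were false; for the ranges 83% and for the interaction 46% of such genes were recovered (13131 genes each). The simulated counts held no differences other than those set, and no length or GC trends. Their rates are thus for cleaner data than these libraries and need not hold for them. Shares of transcripts were compared by enumeration in Python 3.11.15. Alternatives were DESeq2 1.42.0 and its size factors, no low-count filter, an effective length offset, removal of length and GC trends (splines with 4 degrees of freedom), the range as a covariate, each range alone and each library left out; limma 3.58.1 on log2(TPM + 0.1), raw and centred, the range covariate with trends removed, and the ranges within transplant libraries were added after seeing the data.

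The 9 genes and the gene lists were chosen with earlier results of these data known. Named are the 9 genes; Pfkm, Pfkp, Slc2a2 and Mlxipl; up to 6 called genes per pathway or regulator list and contrast; up to 3 markers per list; and the 3 genes most like each of the 9. Hkdc1, Adipoq and the splicing factors were named outside this rule. A few genes that the rule or the pathway list would include are not reported here and are left out of the pathway counts. Promoter windows are RefSeq's (GRCm38.p6). The builds differ from the files', so no positions of expression values are given. Protein sequences are not used here.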

Additional observations from a re-analysis of the deposited data

Results flagged for a closer look

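Hk1 in transplant replicate 6 stood at 2.62 CPM, apart from the other 5 transplant libraries, which lay between 1.22 and 1.59 CPM; the gap to the nearest library took 0.741 of the group's whole range. Of 50 groups of values checked in this way, 1 stood out, and chance alone gives about 1 in 20. Without this library the log2 fold change of Hk1 was the lowest of the leave-one-out fits, at -1.05.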

How the results depend on the processing

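Over all genes, 990 calls became 1956 with DESeq2, 316 with the length offset, 490 with trends removed, 2576 with the range as a covariate, 3 below 100, 3452 at 100 or above, 2562 on log2 TPM, 104 on centred log2 TPM and 137 to 1912 with 1 library left out, the lowest without transplant replicate 1 and the highest without empty scaffold replicate 7. For the other pathway genes the 1 call became 2 with DESeq2 or the range as a covariate, 4 at 100 or above, 10 on log2 TPM, 0 with no low-count filter, the length offset, trends removed, below 100 or on centred log2 TPM, and 0 to 2 with 1 library left out.

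Between the ranges the 3075 calls became 1755 with trends removed and 41 within transplant libraries, and 2087 to 4626 with 1 library left out. The 1 call among the 9 genes became 2 with the length offset, 0 with no low-count filter or within empty scaffold libraries, and 0 to 1 with 1 library left out. The 9 pathway calls became 5 with trends removed, 1 within transplant libraries and 7 to 10 with 1 library left out. The interaction had 0 calls, 183 with DESeq2, 8 with no low-count filter and 0 to 7 with 1 library left out. The difference in the share of the lead transcript ran from -14.3 to 1.4 points for Hk1, from -1.02 to 4.02 for Pfkfb1 and from -12.3 to -3.90 for Pfkfb3 with 1 library left out. Of the values for single genes, 1393 kept direction and side of the threshold (for the 9 genes between the groups, which were not tested, moved by less than the spread between libraries), 48 lost a call, 11 gained one and 11 moved further. The causes of these changes were not tested. No paired analysis was possible because the labels give the groups no shared replicate numbers; numbers were given in accession order. Hk1, Hk2 and Hk3 rest on low counts, from 14 per library, which limits their precision.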
